A study of Camelina sativa with 12 samples.

Results

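The roots of *Camelina sativa* plants that received ACC deaminase from a soil bacterium were set directly against the roots of plants that made the enzyme themselves, all under salt. The first group, called *P. migulae* 8R6-treated or 8R6 here, was the wild-type line DH55 grown in potting mixture inoculated with *Pseudomonas migulae* 8R6, an endophytic bacterium that produces the enzyme. The second group, *35S::acdS*, was a transgenic line, homozygous for a single insert. It carried the *acdS* gene of *Pseudomonas* sp. UW4 behind the constitutive CaMV *35S* promoter. Its labels name no bacterium, and the methods do not say outright whether its soil received buffer. How many independent transformants stand behind this group is not given in the sources used here. The contrast used 6 of the 12 root libraries of the series, 3 of each group, chosen by their labels. The other 6 libraries entered the same fit and are given as a background: the *rolD::acdS* line, in which the gene is behind a root promoter, and the control, DH55 with buffer alone. All 12 came from 28-day-old plants after 21 days of 192 mM NaCl, at an electrical conductivity of 15 dS per m. The 8R6 and *35S::acdS* groups differ in genotype as well as in inoculation, so those effects cannot be told apart in this contrast. No group carried both the bacterium and the transgene, and *acdS* itself has no row in the values used here, so the transgene was not checked.

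ACC is the direct precursor of ethylene, a gaseous hormone that plants make in larger amounts under salt and that restrains root growth. ACC deaminase, the product of *acdS*, breaks ACC down to ammonia and alpha-ketobutyrate and so draws on the pool from which ethylene is made. A bacterium in or near the root takes up ACC that leaves plant cells and also brings its own surface molecules and metabolites, whereas a *35S* transgene acts inside plant cells throughout the plant. *C. sativa* is a hexaploid relative of *Arabidopsis thaliana*, so most *Arabidopsis* genes have up to 3 copies, called homeologs, which are given one by one.

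The values were library-size scaled read counts (CPM) rounded to whole numbers for 49932 genes, of which 48099 had at least 1 CPM in at least 3 of the 12 libraries and were tested. The rounded values summed to between 887898 and 947036 CPM per library, and between 47332 and 47731 genes had at least 1 CPM in each. The read depth behind them is unknown, and the number of libraries limits the precision. The labels call the 3 libraries of a group biological replicates.

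One stretch of chromosome 4 set certain libraries apart and adds to the counts, over all genes, of those lower in 8R6 roots. Of the 190 tested genes in the gene lists below, 1 lies in it. From *Csa04g058080* to *Csa04g065890*, 278 tested genes in a row, summed CPM was 3615, 786 and 3747 in the 8R6 libraries, against 5810, 5879 and 6137 in the *35S::acdS* libraries. The 3 *35S::acdS* libraries lay close together, 8R6 replicate 2 reached 13.2% of their mean, and 8R6 replicates 1 and 3 reached 60.8% and 63.1% of it. The *rolD::acdS* libraries, with 6094, 5873 and 5747 CPM, were at the *35S::acdS* level. Controls differed among themselves, with 5953, 699 and 3586 CPM, so that control replicate 2 was as low as 8R6 replicate 2. Of the 278 genes, 118 were at 0 CPM in 8R6 replicate 2 and at most 2 were at 0 in any *35S::acdS* library.

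From *Csa04g065900* to *Csa04g068160*, the last gene of the chromosome in the file, 94 further genes showed the same order of libraries with smaller gaps. Their summed CPM was 1992, 1425 and 2099 in 8R6 libraries, against 2616, 2685 and 2718 in *35S::acdS* libraries. Among 802 windows of 40 genes along the 20 chromosomes, 6 had a library whose median stood more than 0.35 on the log2 scale from the gene median, and all 6 held genes of this stretch. The bounds were placed by the values of 8R6 replicate 2, so the size of the drop there is a description without a test. The cause was not tested. The 372 genes together are called the chromosome 4 block below.

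**Figure D1:**
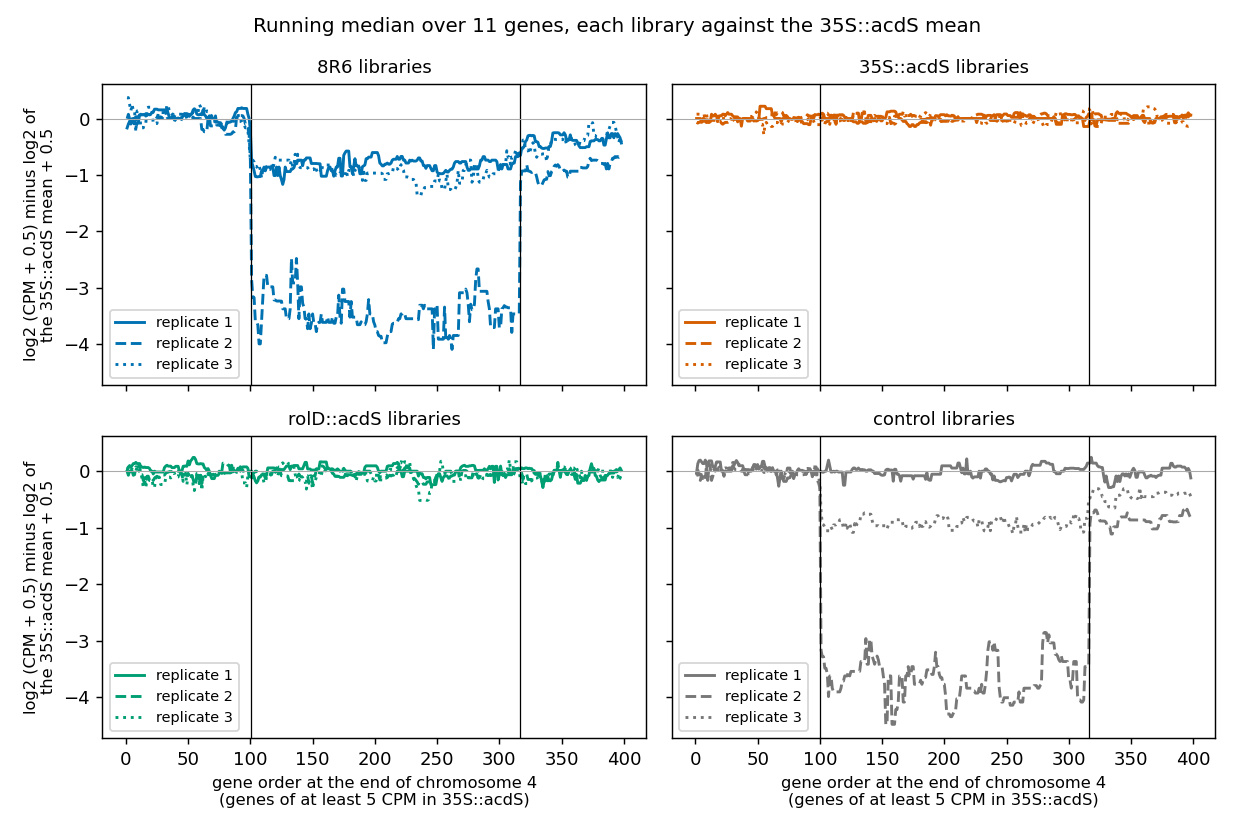
Level of genes along the end of chromosome 4 in each library, as log2(CPM + 0.5) minus the log2 of the *35S::acdS* mean + 0.5, in a running median over 11 genes of at least 5 CPM in *35S::acdS*; vertical lines mark the first 278 genes of the block, and the *35S::acdS* panel lies near 0 by construction. Over these genes the median was -0.84, -3.54 and -0.92 in 8R6 replicates 1, 2 and 3, and -3.65 in control replicate 2.

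All 278 genes of the first stretch had a lower mean in 8R6 roots, and in 217 of them every 8R6 library was below every *35S::acdS* library. *Csa04g061190* had 3, 0 and 6 CPM in 8R6 libraries, against 24, 16 and 18 CPM in *35S::acdS* libraries. *Csa04g058110* had 7, 0 and 5 CPM in 8R6, against 18, 16 and 15 CPM in *35S::acdS*. *Csa04g063480* had 3, 0 and 6 CPM in 8R6, against 14, 18 and 13 CPM in *35S::acdS*. In each of these genes 8R6 replicate 2 was at 0, and in control libraries *Csa04g061190* likewise had 24, 0 and 6 CPM. The median log2 fold change over the first stretch was -1.66 with all libraries and -0.87 without 8R6 replicate 2. At an unadjusted p below 0.05, 83 of the 278 genes were lower, 13 without 8R6 replicate 2, and 197 when control replicate 2 was left out as well. Over all tested genes 5.53% were lower at that p, and in 4.71% every 8R6 library was below every *35S::acdS* library. The stretch was bounded on libraries of this contrast, so its counts describe it and are no test.

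Of the study-listed genes, 5 fell inside the block, and their values carry that limit. They include *Csa04g066220*, a squamosa promoter binding protein-like 1 gene, a family of developmental transcription factors, with 8, 3 and 1 CPM in 8R6 libraries and 12, 14 and 17 CPM in *35S::acdS* libraries. *Csa04g066350*, encoding MYB2, a transcription factor known for abscisic acid responses in *Arabidopsis*, had 3, 2 and 1 CPM in 8R6 and 7, 4 and 6 CPM in *35S::acdS*. Neither group of libraries overlapped the other in these genes. The others were *Csa04g063080*, *Csa04g066100* and *Csa04g067870*.

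No gene passed the adjusted threshold between 8R6 and *35S::acdS* roots in the fit of all 12 libraries, whereas a fit of the 6 libraries of the contrast alone called 26 higher and 48 lower. With limma on log2(CPM + 0.5), calls needed a Benjamini-Hochberg adjusted p no larger than 0.05 together with a log2 fold change beyond 0.8 in size. By this rule 0 genes (0% of those tested) were higher in 8R6 roots and 0 (0%) were lower, and the smallest adjusted p was 0.0859. At an unadjusted p below 0.05, 3138 genes (6.52%) were higher and 2658 (5.53%) were lower. Every 8R6 library lay above every *35S::acdS* library in 2431 genes (5.05%) and below in 2267 (4.71%), and these percentages are the background for the counts in gene groups that follow. An adjusted p below 0.1 was reached by 17 genes and one below 0.2 by 456. Log2 fold changes are 8R6 minus *35S::acdS*, so a positive value means more transcript in 8R6 roots, and the differences named below are differences in level that did not pass the adjusted threshold.

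The chromosome 4 block held 127 of the 2658 genes that were lower at an unadjusted p below 0.05, and 0 of the 3138 that were higher. Outside it, 5.30% of tested genes were lower and 6.57% were higher. On chromosome 4 as a whole 10.4% were lower, which became 5.84% without the block, whereas on the other 19 chromosomes between 4.39% and 6.30% were lower and between 5.92% and 7.37% were higher. Of 353 genes that were lower by a log2 fold change beyond 1 at that p, 88 lay in the block, and 234 genes were higher by the same margin.

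**Figure D2:**
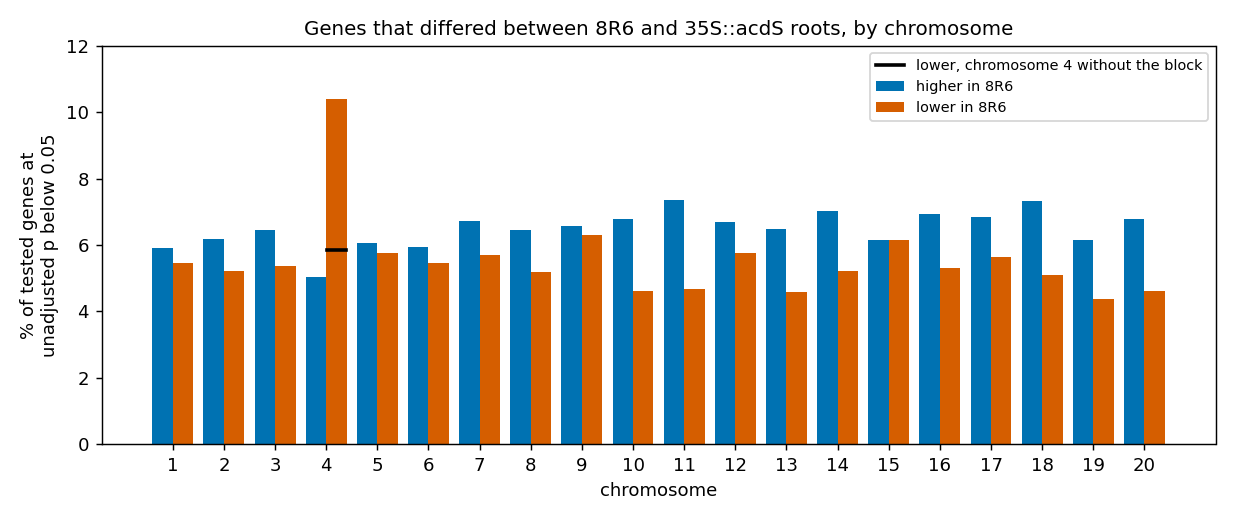
Share of tested genes on each chromosome (bars, starting at 0%) with an unadjusted limma p below 0.05, higher or lower in 8R6 than in *35S::acdS* roots; the black line gives the share lower on chromosome 4 without the block. Chromosome 4 stands out at 10.4% lower and comes to 5.84% without the block.

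The 10 leading genes higher in 8R6 roots had the largest fold changes among those with unadjusted p below 0.05 and no overlap. A mean of at least 5 CPM in the higher group was also required. Several of the 10 were also high in control replicate 3. *Csa03g056770*, without an annotation in the sources used here, had 158, 184 and 219 CPM in 8R6 libraries, against 31, 45 and 25 CPM in *35S::acdS* libraries. The lowest 8R6 library was more than 3 times the highest *35S::acdS* library, and the log2 fold change was 2.49 ± 0.45 (SE; adjusted p = 0.131, limma). In control libraries the gene had 39, 31 and 138 CPM, so control replicate 3 came near the 8R6 libraries while the other controls resembled *35S::acdS*. *Csa14g032510* had 22, 32 and 31 CPM in 8R6, against 4, 7 and 7 CPM in *35S::acdS*. *Csa03g029280* had 16, 15 and 17 CPM in 8R6, against 3, 5 and 4 CPM in *35S::acdS*. Both showed the same high control replicate, with 31 CPM in *Csa14g032510* and 22 CPM in *Csa03g029280*. *Csa11g103940* had 21, 29 and 27 CPM in 8R6 and 2, 7 and 19 CPM in *35S::acdS*, so *35S::acdS* replicate 3 came close to the 8R6 libraries. *Csa17g034640*, *Csa11g103940* and *Csa12g010020* were also highest among controls in replicate 3, at 15, 37 and 8 CPM.

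*Csa04g007650*, which lies on chromosome 4 but outside the block, was among the genes with the smallest adjusted p. It had 49, 68 and 71 CPM in 8R6 libraries, against 20, 20 and 19 CPM in *35S::acdS* libraries, 22 CPM in each *rolD::acdS* library and 26, 25 and 43 CPM in controls. Its log2 fold change was 1.63 ± 0.19 (SE; limma adjusted p = 0.0859). *Csa03g018910*, a methyltransferase of the S-adenosylmethionine-dependent superfamily, had 4, 9 and 7 CPM in 8R6 and 3, 1 and 2 CPM in *35S::acdS*. The 10 leading higher genes were completed by *Csa13g050980* and *Csa12g010010*, described with auxin and defence.

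Several annotated genes of moderate fold change were higher in every 8R6 library. *Csa11g054000*, a thioredoxin superfamily protein, had 100, 143 and 148 CPM in 8R6, against 51, 42 and 55 CPM in *35S::acdS* (log2 fold change 1.38 ± 0.28). Its neighbour in the gene order, *Csa11g053990*, chosen after its values were seen, had 20, 26 and 25 CPM in 8R6 and 8, 9 and 9 CPM in *35S::acdS*. *Csa18g037440*, encoding amino acid permease 4, which imports amino acids into cells, had 24, 33 and 38 CPM in 8R6, against 16, 12 and 14 CPM in *35S::acdS*. Controls resembled *35S::acdS* here, at 11, 15 and 15 CPM.

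A pair of serine carboxypeptidase S28 genes, coding for secreted proteases, showed the opposite arrangement of the controls. *Csa20g037790* had 25, 19 and 20 CPM in 8R6 and 9, 10 and 12 CPM in *35S::acdS*, with 21, 20 and 19 CPM in controls. *Csa08g017160* had 23, 22 and 22 CPM in 8R6 and 6, 11 and 12 CPM in *35S::acdS*, with 19, 18 and 19 CPM in controls. For both, 8R6 and control libraries were alike in level and the *35S::acdS* libraries were low. The *rolD::acdS* libraries were also below every control library. They had 18, 15 and 15 CPM in *Csa20g037790* and 14, 12 and 14 CPM in *Csa08g017160*. *Csa02g001730*, a remorin, a protein of plasma membrane domains, had 67, 58 and 75 CPM in 8R6 and 30, 40 and 42 CPM in *35S::acdS*.

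Of the 10 leading genes lower in 8R6 roots, chosen by fold change under the same rule, 7 lay in the chromosome 4 block. The 10 that lead outside the block were therefore taken as well, after this was seen. *Csa18g035240*, annotated as stress up-regulated Nod 19, had 1, 2 and 2 CPM in 8R6 libraries, against 24, 16 and 7 CPM in *35S::acdS* libraries, a log2 fold change of -2.78 ± 0.39 (limma adjusted p = 0.0899). *Csa10g019050*, cellulose synthase like G3, a member of a glycosyltransferase family related to cellulose synthase, had 5, 3 and 2 CPM in 8R6, against 25, 17 and 16 CPM in *35S::acdS*. Its log2 fold change of -2.42 ± 0.29 came with an adjusted p of 0.0859, the smallest reached. The *rolD::acdS* libraries had 8, 11 and 10 CPM for *Csa18g035240*, all above *35S::acdS* replicate 3, and 10, 10 and 14 CPM for *Csa10g019050*, between the other two groups. The controls were as low as 8R6, at 1, 1 and 2 CPM and at 6, 4 and 4 CPM.

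The study listed both of these genes for *35S::acdS* and for *rolD::acdS* against control roots, a choice made on libraries of this contrast, so their direction here is not independent evidence. *Csa15g082290*, a DUF506 protein, had 1, 1 and 3 CPM in 8R6 and 7, 6 and 8 CPM in *35S::acdS*. *Csa15g007360* had 12, 10 and 2 CPM in 8R6 and 29, 31 and 26 CPM in *35S::acdS*, and *Csa07g037580* had 2, 4 and 6 CPM in 8R6 and 15, 18 and 16 CPM in *35S::acdS*. *Csa05g073580* and *Csa20g081800* completed the unannotated ones, with log2 fold changes of -2.61 and -2.13. The remaining members of this set, *Csa04g032380*, *Csa05g091890* and *Csa17g080380*, are given with their groups.

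**Figure D3:**
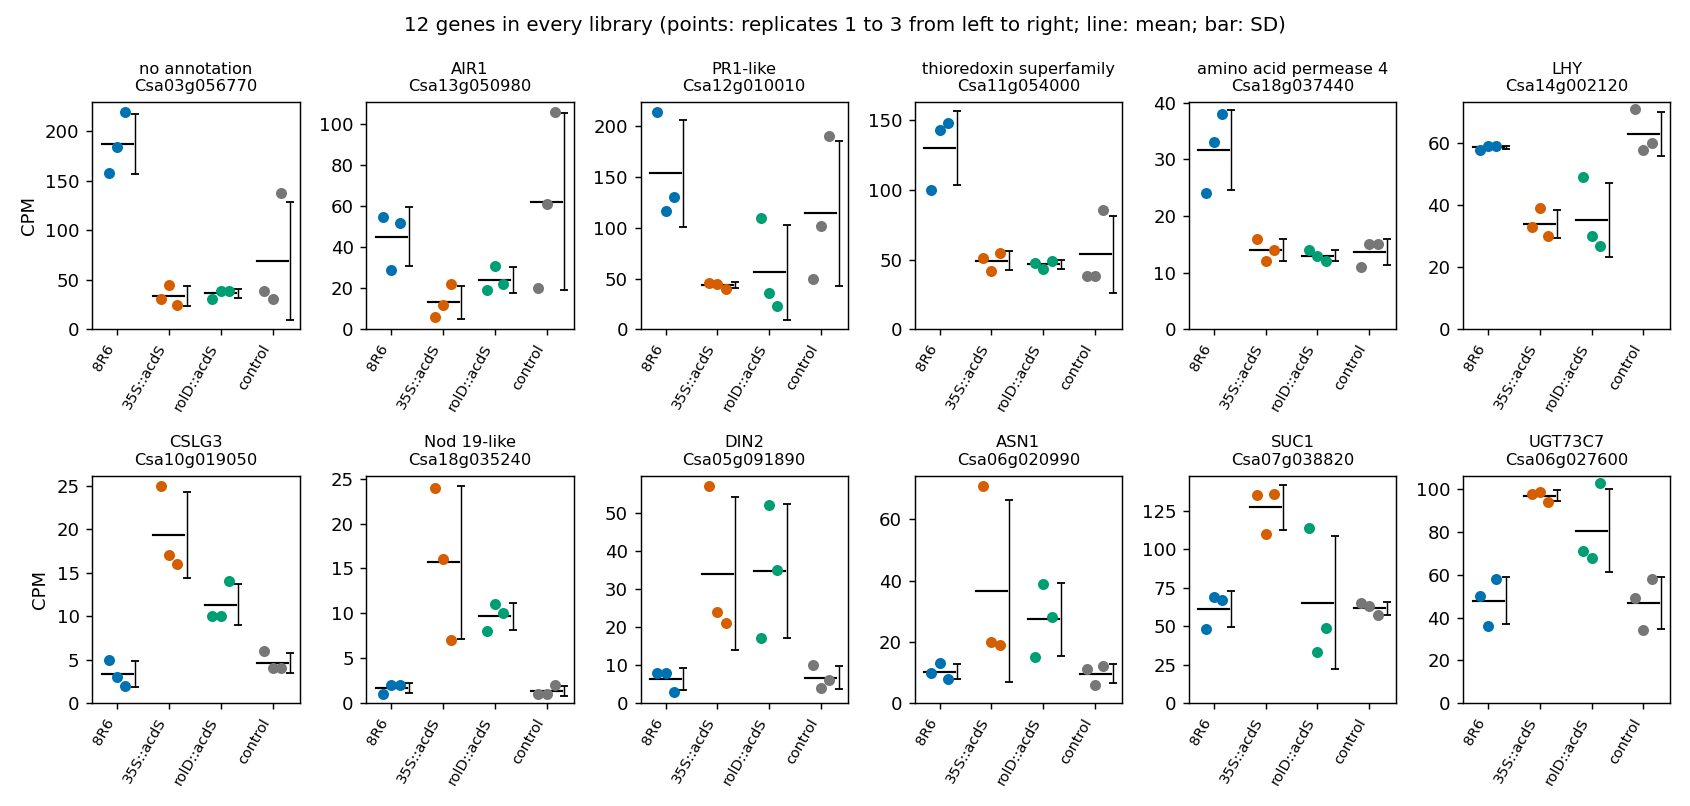
CPM (linear axis from 0) of 12 genes in every library; points are replicates 1 to 3 of each group, lines are group means and bars are the SD (n = 3). *Csa03g056770* lay between 158 and 219 CPM in 8R6 and between 25 and 45 CPM in *35S::acdS*, whereas *Csa10g019050* lay between 2 and 5 CPM in 8R6 and between 16 and 25 CPM in *35S::acdS*.

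Gene groups were taken from the genes the study lists for its comparisons with the control, 441 in all, of which 400 were tested here. In these lists 190 of 202 genes were tested. Most entered the study's lists because the 8R6 or *35S::acdS* libraries differed from control, so their counts describe the contrast and are no independent evidence of its direction. The 134 genes that the study listed for *rolD::acdS* alone were chosen on *rolD::acdS* and control libraries, but also by absence from its other lists. That absence rests on the 8R6 and *35S::acdS* libraries, so these genes are no independent evidence either. Of those tested, 9 were higher and 14 were lower in 8R6 than in *35S::acdS* at an unadjusted p below 0.05 and 98 passed in neither direction, with a median log2 fold change of -0.25 against 0.00 over all tested genes. Among the 238 tested genes listed for *35S::acdS*, 77 were higher and 67 lower, and among the 45 listed for 8R6, 8 were higher and 6 lower.

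Ethylene response factors, the transcription factors that carry the ethylene signal and other stress signals to target genes, were mostly higher in mean in 8R6 roots but spread widely. One of 6 tested members was higher at an unadjusted p below 0.05, none was lower, and the list median was 0.64. The 2 RAP2.6 homeologs went the other way in mean, with log2 fold changes of -1.13 and -0.77, and did not pass with all libraries. *Csa20g010010*, coding for ERF106, had 11, 17 and 13 CPM in 8R6, against 8, 5 and 6 CPM in *35S::acdS*, with 6, 6 and 8 CPM in controls. The ERF105 gene *Csa11g082690* had 14, 43 and 84 CPM in 8R6 and 55, 8 and 16 CPM in *35S::acdS*, so the groups overlapped through *35S::acdS* replicate 1. Without that library 3 of the 6 passed, all higher, and 2 did without 8R6 replicate 1. Without *35S::acdS* replicate 2, 1 was higher and 1 lower with a median of 0.25, and without 8R6 replicate 3 the median was 0.32.

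The same *35S::acdS* replicate led the rapid stress genes. This list holds ZAT10, a zinc finger repressor induced by many stresses, and calcium-binding EF-hand proteins. Its 8 tested members summed to 63, 135 and 168 CPM in 8R6 libraries, against 219, 34 and 55 CPM in *35S::acdS* libraries. None of the 8 passed an unadjusted p of 0.05 with all libraries, and 7 did, all higher in 8R6, without *35S::acdS* replicate 1. None passed when any other single 8R6 or *35S::acdS* library was left out. The list median was 0.58 with all libraries, 1.34 without *35S::acdS* replicate 1 and 0.09 without *35S::acdS* replicate 2. Controls summed to 43, 31 and 49 CPM. ZAT10, *Csa14g035300*, had 24, 47 and 56 CPM in 8R6 and 79, 14 and 20 CPM in *35S::acdS*. Among 5 chaperones, 3 were higher and 1 was lower, and the higher ones included a pair of HSP40-like homeologs: *Csa07g039500* had 10, 30 and 20 CPM in 8R6, against 8, 6 and 10 CPM in *35S::acdS*, with 1 library of each group at the same value. *Csa20g033010*, an HSP20-like chaperone, had 28, 37 and 35 CPM in 8R6 and 15, 23 and 18 CPM in *35S::acdS*. Another HSP20-like gene, *Csa02g043250*, was the lower one, with 8, 8 and 6 CPM in 8R6 and 9, 11 and 13 CPM in *35S::acdS*, and it did not pass without 8R6 replicate 3 or *35S::acdS* replicate 3.

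For abscisic acid, the hormone that closes stomata and drives much of the response to salt, 2 listed genes were tested. NCED3, which catalyses the committed step of its synthesis, had 3, 2 and 3 CPM in 8R6 roots, against 6, 8 and 4 CPM in *35S::acdS* roots (*Csa19g021150*; log2 fold change -1.01 ± 0.29). The libraries did not overlap, and controls had 9, 7 and 5 CPM, at the level of *35S::acdS*. The abscisic acid receptor gene PYL6, *Csa05g012440*, was at 1 or 2 CPM in 8R6 and at 0 or 1 CPM in *35S::acdS*.

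The list of genes that conjugate or glycosylate auxin and related hormones also holds the auxin-induced gene AIR1, given below. Of its 13 tested members 7 were lower in 8R6 roots and 2, AIR1 among them, were higher at an unadjusted p below 0.05. The list median was -0.88. All 3 homeologs of UGT73C7, a UDP-glucosyltransferase, were lower: *Csa06g027600* had 50, 36 and 58 CPM in 8R6, against 98, 99 and 94 CPM in *35S::acdS*, and *Csa09g061430* had 17, 13 and 14 CPM in 8R6, against 42, 32 and 30 CPM in *35S::acdS*. Both tested homeologs of UGT74E2, which glucosylates indole-3-butyric acid in *Arabidopsis*, were lower as well. *Csa14g007040* had 82, 57 and 60 CPM in 8R6 and 119, 107 and 126 CPM in *35S::acdS*. Controls of *Csa06g027600* were at 49, 34 and 58 CPM, the level of the 8R6 libraries.

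The GH3 family encodes enzymes that join amino acids to auxin and other hormones, and its members did not all lie on the same side. *Csa17g080380* had 1, 0 and 0 CPM in 8R6 libraries, against 8, 5 and 2 CPM in *35S::acdS* libraries, with 1, 1 and 0 CPM in controls. The fitted log2 fold change of -2.76 ± 0.65 depends on the pseudocount at such levels. In contrast, *Csa03g010320* had 7, 9 and 7 CPM in 8R6 and 4, 3 and 3 CPM in *35S::acdS*. The study designed a digital PCR assay for *Csa17g080380* on chromosome 17, named Csa17G80380 in its primer list, and its oligos are shown because they identify the transcript that such an assay reads out; they carry no value here.
Forward primer of Csa17g080380: ccggccatcaaaatgtaattcagag
Probe of Csa17g080380: tgccccgacatcaaccaaagt
Reverse primer of Csa17g080380: cgttaacaaccacaaccttgtctctc
Of the 7 genes with such probes 3 were tested, and the other 2, a Kunitz protease inhibitor, *Csa07g039380*, and a myrosinase-binding protein, *Csa20g044800*, were at 0 CPM in every 8R6 library and at most 2 CPM in *35S::acdS*.

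AIR1, an auxin-induced gene of root cultures, was among the leading genes higher in 8R6 roots. *Csa13g050980* had 55, 29 and 52 CPM in 8R6, against 6, 12 and 22 CPM in *35S::acdS*, a log2 fold change of 1.85 ± 0.58. Control libraries ran over both ranges, at 20, 61 and 106 CPM.

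Listed salicylic acid and pathogenesis-related genes were higher in 8R6 roots, in 9 of 17 tested members at an unadjusted p below 0.05, with none lower. The study listed all 17 from comparisons that used libraries of this contrast, so their direction is no independent evidence. The summed level of these genes was 377, 305 and 320 CPM in 8R6 libraries, against 163, 183 and 158 CPM in *35S::acdS* libraries. Controls summed to 305, 418 and 396 CPM, so the *35S::acdS* libraries were the low ones over the list. In 11 members every 8R6 library lay above every *35S::acdS* library, in 2 every one lay below, and the list median was 0.75. The PR1-like gene *Csa12g010010*, a secreted defence protein, had 214, 117 and 130 CPM in 8R6, against 46, 45 and 40 CPM in *35S::acdS*. Its homeolog *Csa10g008480* had 12, 11 and 11 CPM in 8R6 and 4 CPM in each *35S::acdS* library (log2 fold change 1.39 ± 0.27). The groups were apart in both, and controls varied, from 50 to 191 CPM in *Csa12g010010*.

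All 3 homeologs of NIMIN2, which binds the salicylic acid co-activator NPR1, were higher in every 8R6 library. *Csa09g009080* had 19, 24 and 18 CPM in 8R6, against 13, 11 and 9 CPM in *35S::acdS*, and *Csa04g011120* had 9, 11 and 11 CPM in 8R6, against 5, 6 and 4 CPM in *35S::acdS*. Osmotin 34, *Csa13g048800*, a defence protein also induced by salt, had 20, 27 and 26 CPM in 8R6 and 10, 19 and 15 CPM in *35S::acdS*. Of 3 beta-1,3-glucanases of glycosyl hydrolase family 17, enzymes that cut callose and fungal walls, *Csa18g011250* had 37, 42 and 48 CPM in 8R6 and 21, 33 and 29 CPM in *35S::acdS*. Controls of *Csa18g011250* were at 48, 54 and 45 CPM, so the *35S::acdS* libraries were the low ones. The listed chitinase *Csa15g016370* went the other way, with 6, 5 and 8 CPM in 8R6 and 24, 18 and 16 CPM in *35S::acdS*, and did not pass an unadjusted p of 0.05.

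Among thionins and defensins, small antimicrobial peptides, 2 of 11 were higher and 1 was lower, with a median of -0.53. None was lower without 8R6 replicate 3 or *35S::acdS* replicate 1, 2 were lower without *35S::acdS* replicate 3, and the median was 0.00 without *35S::acdS* replicate 1 or 2. *Csa10g040380*, a defensin 1.2 gene, had 88, 19 and 30 CPM in 8R6 and 188, 56 and 79 CPM in *35S::acdS*, and the groups overlapped. PAD3, the last enzyme of camalexin synthesis in *Arabidopsis*, had 3, 4 and 3 CPM in 8R6 and 1, 0 and 1 CPM in *35S::acdS* at *Csa06g006620*, whereas *Csa09g011480* had 6, 5 and 3 CPM in 8R6 and 6, 3 and 5 CPM in *35S::acdS*.

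**Figure D4:**
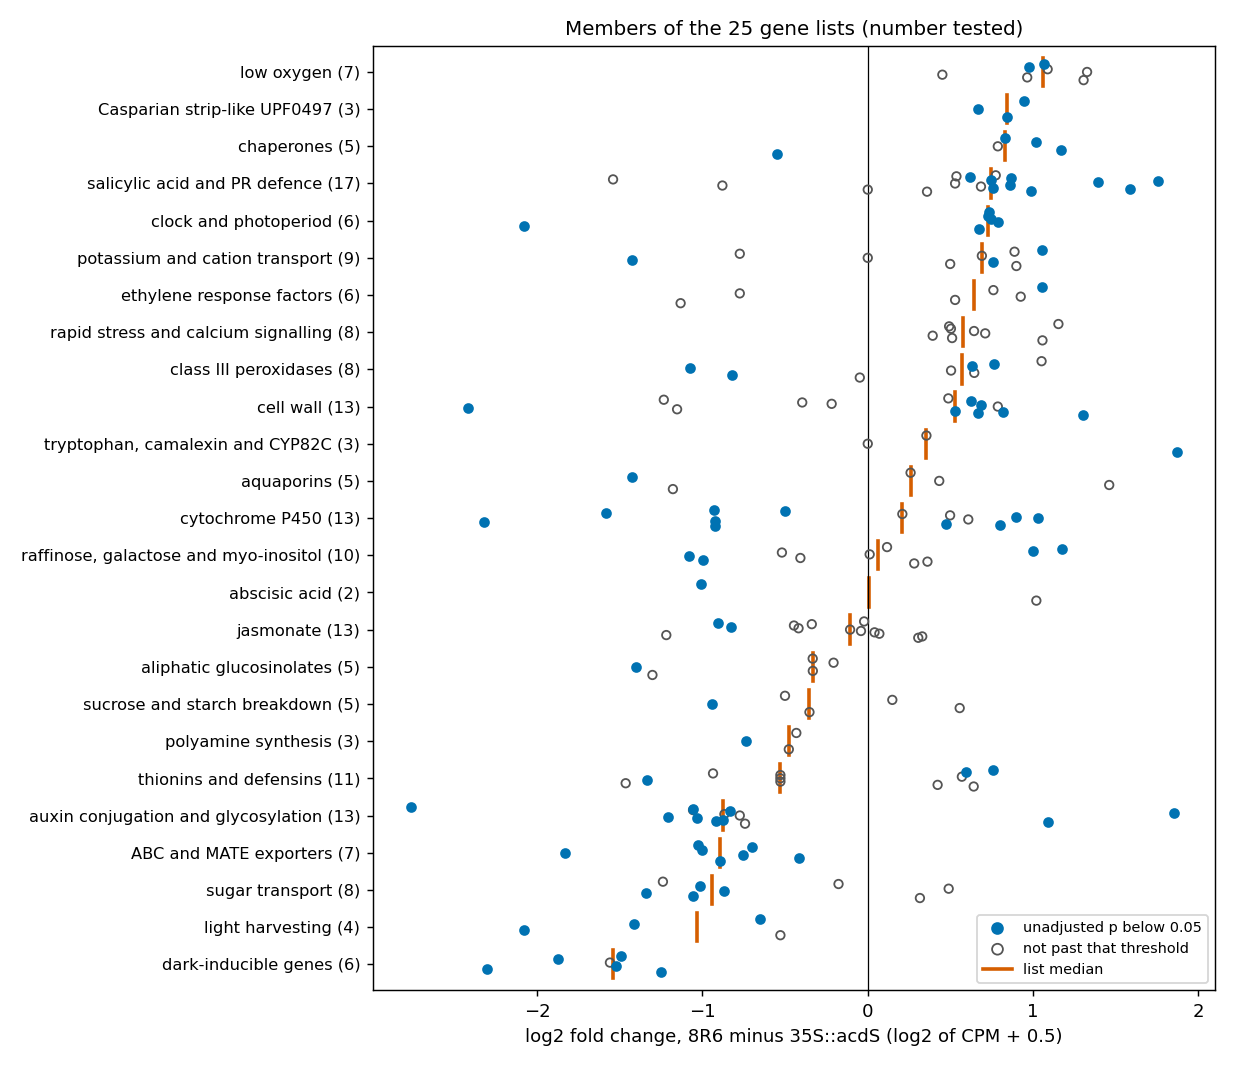
Log2 fold change, 8R6 minus *35S::acdS*, of each tested member of the 25 gene lists, with the number tested after each name; filled points passed an unadjusted limma p of 0.05, open points did not, and vertical bars are list medians. Medians run between -1.54 for the dark-inducible genes and 1.06 for the low oxygen genes, beside 0.00 over all tested genes.

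Dark-inducible genes, which respond to low sugar and darkness in *Arabidopsis*, had the lowest list median, -1.54, and 5 of 6 were lower in 8R6 roots. Their summed level was 55, 48 and 25 CPM in 8R6 libraries, against 286, 83 and 104 CPM in *35S::acdS* libraries. Groups did not overlap, and *35S::acdS* replicate 1 was by far the highest. Without that library 3 of 6 passed and the median was -0.99. The DIN2 gene *Csa05g091890*, a beta-glucosidase, had 8, 8 and 3 CPM in 8R6, against 57, 24 and 21 CPM in *35S::acdS*. *Csa16g005800*, its homeolog, had 12, 10 and 5 CPM in 8R6 and 49, 17 and 18 CPM in *35S::acdS*. ASN1, which makes asparagine when carbon is short, had 10, 13 and 8 CPM in 8R6 and 71, 20 and 19 CPM in *35S::acdS* at *Csa06g020990*. Controls summed to 45, 22 and 50 CPM over the list, at the level of 8R6. The *rolD::acdS* libraries summed to 101, 184 and 127 CPM, above every 8R6 and control library.

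The sucrose-proton symporter SUC1, which loads sucrose into cells, was lower in 8R6 roots in all 3 homeologs. *Csa07g038820* had 48, 69 and 67 CPM in 8R6, against 135, 110 and 136 CPM in *35S::acdS*, with 65, 63 and 57 CPM in controls. *Csa09g075220* had 28, 48 and 61 CPM in 8R6 and 94, 62 and 87 CPM in *35S::acdS*. *Csa16g034520* had 18, 43 and 41 CPM in 8R6 and 64, 53 and 79 CPM in *35S::acdS*. In each, 8R6 replicate 1 was the lowest of the 8R6 and *35S::acdS* libraries, and these groups did not overlap. A further sugar transporter, *Csa08g011370*, repeated this with 11, 47 and 45 CPM in 8R6 and 71, 89 and 63 CPM in *35S::acdS*. Of the 8 tested sugar transport genes 4 were lower and none was higher at an unadjusted p below 0.05; without 8R6 replicate 1 none was lower and 1 was higher, without *35S::acdS* replicate 1 or replicate 3 1 was lower, and without *35S::acdS* replicate 2 2 were lower. The SWEET13 and SWEET14 genes, which export sugars from cells, overlapped between the groups.

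Raffinose, galactose and myo-inositol genes split, with 2 of 10 higher and 2 lower. Seed imbibition 2, *Csa09g070000*, related to enzymes that act on raffinose, had 78, 125 and 126 CPM in 8R6, against 290, 203 and 200 CPM in *35S::acdS*, a log2 fold change of -1.08 ± 0.25. *Csa08g014090*, of the raffinose synthase family, had 7, 6 and 6 CPM in 8R6 and 16, 10 and 14 CPM in *35S::acdS*. A pair of abundant galactose mutarotase-like genes lay on the other side. *Csa19g003320* had 395, 231 and 472 CPM in 8R6, against 128, 198 and 147 CPM in *35S::acdS*. *Csa15g001220* had 213, 113 and 173 CPM in 8R6 and 57, 124 and 73 CPM in *35S::acdS*, so 1 library of each group crossed over.

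The listed exporters were lower in 8R6 roots. The study listed all 7 tested ones from comparisons that used libraries of this contrast, so their direction is no independent evidence. All 7 tested ABC and MATE exporters, pumps that move metabolites and hormones out of the cytoplasm, were lower at an unadjusted p below 0.05, and in all 7 the libraries did not overlap. MRP3, *Csa19g018380*, had 85, 60 and 58 CPM in 8R6, against 103, 104 and 119 CPM in *35S::acdS*. A MATE gene listed for 8R6, *Csa16g018340*, had 2 CPM in each 8R6 library and 3, 5 and 6 CPM in *35S::acdS*, and the ABC-2 gene *Csa06g005130* had 1 CPM in each 8R6 library and 4, 7 and 4 CPM in *35S::acdS*. In controls *Csa16g018340* and *Csa06g005130* were at 5, 5 and 6 CPM and at 5, 6 and 2 CPM, whereas MRP3 had 63, 33 and 73 CPM there, closer to 8R6. The count was 4 of 7 without 8R6 replicate 2, without 8R6 replicate 3 or without *35S::acdS* replicate 3.

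Cytochrome P450 genes, oxidases of secondary metabolism and hormone breakdown, split with 4 higher and 6 lower of 13. CYP71A20, *Csa12g066100*, had 52, 63 and 49 CPM in 8R6 and 24, 32 and 24 CPM in *35S::acdS*. CYP71A23, *Csa04g032380*, had 0, 1 and 2 CPM in 8R6 and 5, 9 and 4 CPM in *35S::acdS*, and a CYP72A gene, *Csa19g021310*, had 16, 17 and 23 CPM in 8R6 and 38, 33 and 36 CPM in *35S::acdS*. CYP709B1, *Csa04g066100*, is the list's member in the chromosome 4 block. Without 8R6 replicate 1, 2 of the 13 were higher. Among class III peroxidases, which build and stiffen walls and handle hydrogen peroxide, 2 of 8 were higher and 2 were lower. Peroxidase CB, *Csa06g023070*, had 40, 45 and 35 CPM in 8R6 and 123, 59 and 83 CPM in *35S::acdS*, and *Csa06g041190* had 50, 41 and 43 CPM in 8R6 and 21, 28 and 30 CPM in *35S::acdS*. Without 8R6 replicate 2, 5 of the 8 were higher, and without any one of the other 8R6 libraries or of *35S::acdS* replicates 1 and 2, 1 was.

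Cell wall genes were higher in 6 of 13 cases and lower in 1. The 4 hydroxyproline-rich glycoprotein genes, structural proteins of the wall, were all among the higher ones, with log2 fold changes between 0.53 and 0.68. *Csa07g052600* had 53, 54 and 59 CPM in 8R6, against 27, 45 and 34 CPM in *35S::acdS*. The most abundant, *Csa16g044260*, averaged 111.0 ± 8.54 CPM in 8R6 (SD, n = 3), against 56, 91 and 72 CPM in the *35S::acdS* libraries, without overlap. Its controls, at 150, 134 and 119 CPM, were no lower than the 8R6 libraries. The lower one was cellulose synthase like G3, given above, and 3 were lower without 8R6 replicate 3 or *35S::acdS* replicate 2.

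Listed clock genes were mostly higher in 8R6 roots. The study listed all 6 from comparisons that used libraries of this contrast, so their direction is no independent evidence. LHY, a morning transcription factor of the circadian clock, was higher in all 3 homeologs. *Csa14g002120* had 58, 59 and 59 CPM in 8R6, against 33, 39 and 30 CPM in *35S::acdS*, *Csa17g001540* had 68, 70 and 56 CPM in 8R6 and 36, 43 and 36 CPM in *35S::acdS*, and *Csa03g002180* had 58, 65 and 52 CPM in 8R6 and 37, 40 and 32 CPM in *35S::acdS*. In *Csa14g002120* the *rolD::acdS* libraries, with 49, 30 and 27 CPM, came nearer to *35S::acdS*, while controls, with 71, 58 and 60 CPM, lay with 8R6. RVE1, *Csa20g025380*, a related factor that links the clock to auxin, had 16, 16 and 17 CPM in 8R6 and 11, 9 and 9 CPM in *35S::acdS*. Of 6 listed clock genes 5 were higher and 1, the CONSTANS-like 1 gene *Csa13g018660* at 0 CPM in every 8R6 library and 1, 2 and 2 CPM in *35S::acdS*, was lower. Without 8R6 replicate 2, 3 were higher. The time of day of harvest is not given in the sources used here, and its part in these values was not tested.

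Root identity genes were present in both groups. SKOR, a potassium channel of the root stele that releases potassium into the xylem, summed to 19, 12 and 10 CPM over its 3 homeologs in 8R6 libraries, against 5, 8 and 8 CPM in *35S::acdS* libraries and 17, 20 and 19 CPM in controls. None of the 3 passed an unadjusted p of 0.05. The 3 UPF0497 genes, relatives of the proteins that place the Casparian strip of the endodermis, were all higher in 8R6 at that threshold, with sums of 64, 43 and 55 CPM in 8R6 and 23, 40 and 31 CPM in *35S::acdS*. That count was 1 without 8R6 replicate 3 or *35S::acdS* replicate 1, and 0 without 8R6 replicate 1. HKT1, which retrieves sodium from the xylem in *Arabidopsis*, had 66, 45 and 54 CPM in 8R6 and 24, 45 and 30 CPM in *35S::acdS* at *Csa08g040240*, and both groups shared the value 45. Of 9 tested potassium and cation transport genes 2 were higher and 1 was lower. None was higher without 8R6 replicate 1 or replicate 3, 1 was higher without *35S::acdS* replicate 1 or replicate 3, and 3 were higher and none lower without *35S::acdS* replicate 2. The 4 light-harvesting genes, markers of green tissue, summed to 3 CPM in each 8R6 library and to 5, 10 and 20 CPM in *35S::acdS* libraries. All 4 had a lower mean in 8R6 and 3 passed an unadjusted p of 0.05; no *35S::acdS* library was above 9 CPM in any of them. In bulk root tissue fewer cells of a type and less RNA per cell cannot be told apart, and the part of tissue composition in the other lists was not tested.

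Low oxygen genes had the highest list median, 1.06, and were listed by the study only for *rolD::acdS*. All 7 had a higher mean in 8R6 roots, and 2 passed an unadjusted p of 0.05. Summed levels were 232, 311 and 239 CPM in 8R6 libraries, against 65, 113 and 262 CPM in *35S::acdS* libraries and 116, 164 and 353 CPM in controls, so *35S::acdS* replicate 3 and control replicate 3 reached the 8R6 range. Without *35S::acdS* replicate 3, 6 of 7 passed and the median was 1.51, and without *35S::acdS* replicate 1, *35S::acdS* replicate 2 or 8R6 replicate 2 none passed. PDC1, pyruvate decarboxylase of ethanolic fermentation, had 44, 77 and 48 CPM in 8R6 and 7, 19 and 72 CPM in *35S::acdS* at *Csa12g011790*. LBD41, a transcription factor induced when oxygen is low, had 54, 65 and 54 CPM in 8R6 and 17, 28 and 51 CPM in *35S::acdS* at *Csa19g004650*.

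Jasmonate genes and polyamine synthesis, also listed almost entirely for *rolD::acdS*, lay closer together. Of 13 tested jasmonate genes 2 were lower and none was higher, with a median of -0.11. They were the repressor genes JAZ9, *Csa16g032280*, at 6, 7 and 7 CPM in 8R6 and 15, 10 and 12 CPM in *35S::acdS*, and JAZ10, *Csa20g018590*, at 2 CPM in each 8R6 library and 4, 3 and 6 CPM in *35S::acdS*. The other JAZ10 homeologs, *Csa08g005100* and *Csa13g015820*, had log2 fold changes of 0.07 and -0.42 and did not pass. Of the 3 homeologs of ADC2, arginine decarboxylase of putrescine synthesis, 1 was lower, *Csa11g007220*, at 23, 38 and 52 CPM in 8R6 and 60, 48 and 74 CPM in *35S::acdS*. These groups overlapped. Without 8R6 replicate 1 none of the jasmonate or polyamine genes passed, and without *35S::acdS* replicate 1, 1 jasmonate gene was higher and 1 lower. The polyamine count was also 0 without 8R6 replicate 2, *35S::acdS* replicate 1 or *35S::acdS* replicate 3, and 2 were lower without 8R6 replicate 3.

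The remaining lists held few differences. Of 5 aquaporins, water channels, 1 was lower: *Csa06g042950*, a plasma membrane PIP2E gene, had 0, 1 and 1 CPM in 8R6 and 2, 2 and 3 CPM in *35S::acdS*. The vacuolar TIP1;1 gene *Csa06g039470* had 189, 124 and 144 CPM in 8R6, against 100, 118 and 116 CPM in *35S::acdS*, without overlap, at an unadjusted p of 0.0949 (limma). Of 5 sucrose and starch breakdown genes, 1, the beta-amylase gene *Csa12g049650*, was lower, with 3, 8 and 9 CPM in 8R6 and 13, 8 and 17 CPM in *35S::acdS*. Of 5 aliphatic glucosinolate genes, which make defence compounds of the cabbage family, 1 was lower, with a median of -0.33. The median was 0.01 without 8R6 replicate 1 and -0.90 without 8R6 replicate 3, and the lower gene did not pass without 8R6 replicate 1 or 2 or without *35S::acdS* replicate 2 or 3. The aquaporin count was 0 lower without 8R6 replicate 1 or any one *35S::acdS* library and 2 lower without 8R6 replicate 2 or 3. The sucrose and starch count was 0 without 8R6 replicate 1, *35S::acdS* replicate 1 or *35S::acdS* replicate 3, and 2 without 8R6 replicate 3.

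Homeologs that the study listed mostly lay on the same side, which its choice of genes fixes in part. Among 55 *Arabidopsis* orthologs with at least 2 tested study-listed homeologs, the fold changes of all copies had the same sign in 49. Copies that the study did not list were left out, and no share over all homeologs stands beside these counts. All copies were higher at an unadjusted p below 0.05 in 9 sets and lower in 7, and in none did copies pass the threshold on both sides. The higher sets included LHY, NIMIN2 and the PR1-like pair, and the lower ones SUC1, UGT73C7, DIN2, ASN1 and a pair of glutamate-ammonia ligase genes. Of that pair, *Csa09g061450* had 11, 5 and 5 CPM in 8R6, against 23, 22 and 18 CPM in *35S::acdS*, and *Csa04g039120*, on chromosome 4 outside the block, had 19, 10 and 11 CPM in 8R6, against 33, 26 and 31 CPM in *35S::acdS*. Reads that fit several near-identical homeologs can be shared or dropped in counting, so the copies are not independent of each other.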

How the data were processed

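RNA was taken from roots of 3 biological replicates of each of 4 groups, 12 libraries in all, and sequenced from stranded libraries. The submitters' processing notes and the methods name Trimmomatic, STAR, DESeq and edgeR. Per the methods, STAR aligned the reads to release 100 of the *C. sativa* reference genome and to NCBI transcripts. Tool versions are not given in the sources used here. The deposited matrix holds CPM that the authors rounded to whole numbers, treated here as a score and not as raw counts: library sums lie between 887898 and 947036, and the median within-group variance of genes of 5 to 20 CPM was 0.167 of their mean. The deposited values were therefore not fitted as counts. No column was left unused, 1833 genes were below the filter, and rounding leaves genes under about 5 CPM in coarse steps.

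The log2(CPM + 0.5) values of all 12 libraries were fitted as group means with limma 3.58.1 in R 4.3.3 (empirical Bayes with trend, 8 residual degrees of freedom), contrast 8R6 minus *35S::acdS*, two-sided, with Benjamini-Hochberg adjustment over 48099 genes. The fit was tested on simulated data. Genes were named by rule: the 10 per direction with the largest fold change among those with unadjusted p below 0.05, libraries not overlapping and at least 5 CPM in the higher group, members of the lists at that p with their homeologs, study-listed genes at that p past a log2 fold change of 0.8 without overlap, and genes with a PCR assay. The rule gave 172 genes with the added set outside the chromosome 4 block, and the text names the leading ones. A few others are named after their values were seen, as members of a list described by its counts. Gene names, orthologs and oligos come from the study's supplementary tables; those tables also hold the authors' fold changes, which were not used. Positions are the order of gene identifiers. The block was bounded by 2 least-squares breakpoints in 8R6 replicate 2 relative to the *35S::acdS* mean. The contrast, the lists and the rules were chosen with earlier results of these data known. Replicate numbers were not used to pair the libraries in the main fit, and whether libraries of the same number shared a batch is unknown.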

Additional observations from a re-analysis of the deposited data

How the results depend on the processing

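In all, 27 alternatives were run, 3 of them chosen after seeing the data. Called genes (0 higher and 0 lower as reported) became 1 higher and 2 lower with a pseudocount of 0.1, 1 and 1 with a mean of at least 5 CPM, 26 and 48 with only the 8R6 and *35S::acdS* libraries in the fit, 2 and 7 without a trend, and 1 and 1 with robust empirical Bayes. They were 0 and 0 with a pseudocount of 1, without a filter, without a fold limit, and under all 3 scalings. Leaving out single libraries gave 0 to 10 called higher and 0 to 12 called lower, 2239 to 3827 higher and 1928 to 4034 lower at an unadjusted p below 0.05. The 4034 came without 8R6 replicate 1, and the 10 and 12 without control replicate 3. With the replicate block the called counts were 0 and 0, and 3657 genes were higher and 3289 lower at an unadjusted p below 0.05. Deviations of same-numbered 8R6 and *35S::acdS* libraries correlated at 0.261, -0.0702 and 0.197 over genes for replicates 1, 2 and 3, and 8R6 replicate 2 was closer to *35S::acdS* replicate 3, at 0.167. For 8R6 replicates 1 and 3 the closest *35S::acdS* library was the one of the same number. The match did not hold for every number, so the numbers were not used as pairs in the main fit. The 3 added alternatives called 0 genes each way. Fitted without the chromosome 4 block, 3144 genes were higher and 2548 lower at that p. Without 8R6 replicate 2 and control replicate 2 these were 2436 and 2143. Scaling to equal sums turned the balance to 2657 higher and 3000 lower, with a median of -0.02 over all genes. Of 172 named genes, 11 were called under at least 1 alternative, among them *Csa10g019050* and *Csa04g007650* under 6 each, and 3 with a fold change near 0 changed sign.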
